A study of Mus musculus with 12 samples.

Results

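The comparison described here set 3 libraries of Tnfr2-/- T cells cultured with TNF+TGF-β against 3 libraries of wild-type (WT) T cells cultured with IL-6+TGF-β, 6 of the 12 libraries of the series. The groups were taken from the sample labels, and a gene was tested where at least 3 of these 6 libraries had at least 1 FPKM (RNA fragments counted per kilobase of a gene's transcript and scaled by library size), which kept 12309 of the 47643 genes in the table. Tnfr2 is TNF receptor 2, encoded by Tnfrsf1b, and Tnfr2-/- mice lack it in every cell. All mice were on the C57BL/6 strain, and the cells were labelled as naive CD4 T cells. All groups received the same stimulation: plate-bound antibodies against CD3 and CD28 (each coated at 2 μg/ml) for 3 days, with 500000 cells seeded. The cytokine doses were 20 ng/ml for TNF and for IL-6, and 2 ng/ml for TGF-β. The other 6 libraries were 3 of WT cells with TNF+TGF-β and 3 of WT cells activated without added cytokine (Th0), and they are used here for levels and for the shared estimate of spread. Genotype and cytokine differ together between the 2 groups compared, so within this contrast the loss of TNFR2, the absence of IL-6 and the presence of TNF cannot be told apart. The Tnfr2-/- cells still had Tnfrsf1a, the gene of the other TNF receptor, and neither Tnfr2-/- cells without cytokine nor TGF-β by itself were in the libraries analysed here. The 3 libraries of a group were called triplicates, without a statement on separate mice or cultures. Each p-value therefore measures only the spread between libraries of a group, pooled over the 4 groups, and that spread may be technical.

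IL-6 binds its receptor together with the shared signalling chain gp130 and activates the transcription factor STAT3. With TGF-β it directs activated CD4 T cells toward Th17 cells, which make IL-17, whereas TGF-β without IL-6 favours Foxp3-expressing regulatory T cells (Treg). TNFR2 is the TNF receptor found mainly on lymphocytes, where it costimulates activated and regulatory T cells through TRAF proteins and NF-κB.

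Tnfrsf1b itself followed the genotype labels. Its level was 36.7, 77.4 and 64.8 FPKM in the IL-6+TGF-β libraries numbered 1, 2 and 3, and 4.87, 3.71 and 3.19 FPKM in the Tnfr2-/- libraries numbered 1, 2 and 4, the order in which values are given throughout. The log2 difference, Tnfr2-/- minus IL-6+TGF-β on the log2(FPKM + 1) scale as for every difference here, was -3.57 (limma, adjusted p = 1.97e-06). The gene lies on chr4:145213463-145246870 (GRCm38, GENCODE M21), and a low level remained in all 3 Tnfr2-/- libraries.

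Marker genes of other cell types differed between the 2 groups and are given before the single genes. The B cell gene Cd79a, part of the B cell antigen receptor, was high in the Tnfr2-/- group, as was Cd74, the invariant chain of MHC class II. Cd74 measured 3839, 1696 and 3857 FPKM with IL-6+TGF-β and 11374, 21402 and 23674 FPKM in the Tnfr2-/- libraries, in each of which it was the most abundant gene. All 10 listed B cell markers were called higher, with a summed level of 424 to 945 FPKM with IL-6+TGF-β and 2087 to 4569 FPKM in Tnfr2-/-. All 7 tested genes in the list for MHC class II and dendritic cells were also called higher, at 2869 to 6260 against 19164 to 37673 FPKM in sum. Of its defining dendritic cell genes, Itgax, Flt3, Zbtb46, Xcr1 and Siglech did not reach the level for testing. Of the 16 tested macrophage and myeloid markers, 15 were called higher, with sums of 339 to 404 against 1077 to 2450 FPKM. Of the 21 listed, 8 had at least 1 FPKM in all IL-6+TGF-β libraries and 15 in all Tnfr2-/- libraries. A marker seen in 1 group only could pass the filter through that group alone, which fixed the direction of such counts in part. Without the filter on low values, 9 of 12 MHC class II and dendritic cell genes were called higher and 1 lower. Of 20 macrophage and myeloid genes, 13 were then called higher and 1 lower. The neutrophil genes Ly6g, Mpo and Elane were listed at 0 in all Tnfr2-/- libraries, whereas S100a8, a calprotectin subunit abundant in neutrophils, was 7.13, 3.02 and 51.7 FPKM with IL-6+TGF-β and 94.8, 171 and 64.4 FPKM in Tnfr2-/- (adjusted p = 0.0392), a call lost without any single library but the IL-6+TGF-β library numbered 3. Lyz2, the lysozyme of myeloid cells, stood at 12.8, 52.4 and 24.04 against 1310.0, 928 and 178 FPKM. The haemoglobin genes Hbb-bs and Hba-a2 were also called higher, but uneven among the Tnfr2-/- libraries, with Hbb-bs at 17.6, 2.30 and 42.1 FPKM and the call of Hba-a2 lost without the libraries numbered 1 or 4 of Tnfr2-/- or 1 or 2 of IL-6+TGF-β.

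The T cell receptor sums overlapped. The 17 genes of the T cell receptor complex and its signalling summed to 5958 to 7110 FPKM with IL-6+TGF-β and 4735 to 6946 FPKM in Tnfr2-/-, with a median log2 difference of -0.23 and 5 of 17 called lower. That count was 8 without the Tnfr2-/- library numbered 1 and 3 without any 1 of the IL-6+TGF-β libraries numbered 2 and 3 and the Tnfr2-/- libraries numbered 2 and 4. Cd4 did not pass the test, at 4.07, 25.2 and 14.1 against 17.6, 11.03 and 10.3 FPKM, with both ranges overlapping. Cd8a, which marks CD8 T cells, was 194, 142 and 158 FPKM with IL-6+TGF-β and 29.04, 27.8 and 8.54 FPKM in Tnfr2-/- (log2 difference -3.02, adjusted p = 6.01e-05). It exceeded Cd4 in 5 of the 6 libraries, although the labels name CD4 T cells alone. The library numbered 4 had the highest B cell and the lowest T cell receptor sums of the 3 Tnfr2-/- libraries, and the library numbered 1 the highest myeloid sum. In bulk RNA, fewer cells of a type and less RNA per cell cannot be told apart, and the part of the cell mixture in the differences below was not tested.

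**Figure D1:**
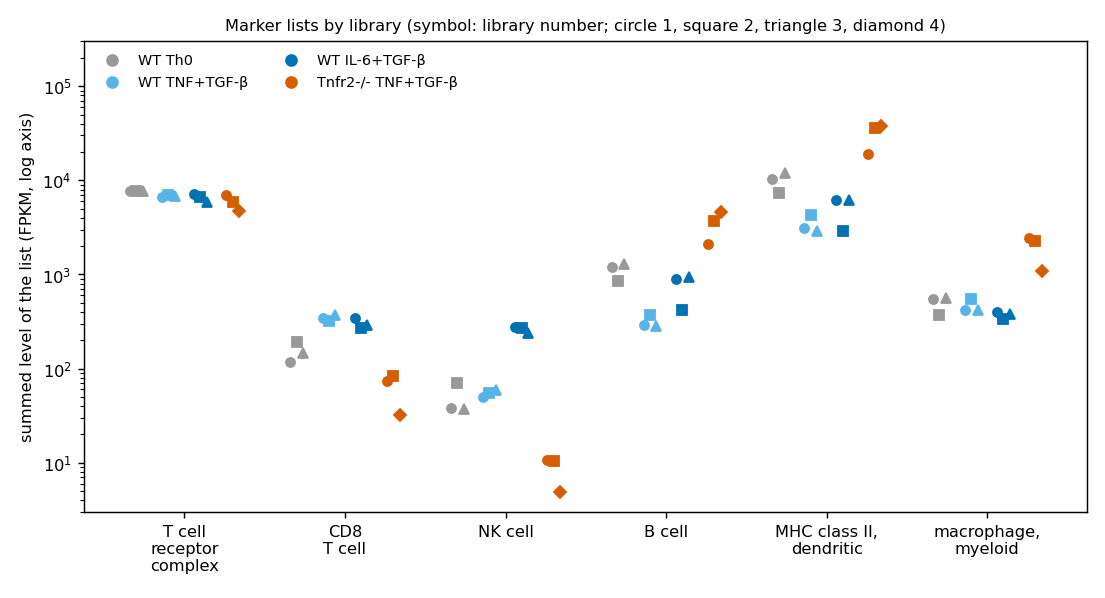
Summed FPKM of 6 marker lists in each library, on a log axis, by group; symbols give the library number. The Tnfr2-/- libraries lie above all 3 IL-6+TGF-β libraries for the B cell, MHC class II and myeloid lists and below them for the CD8 T cell and NK cell lists, while the T cell receptor lists overlap.

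Across all tested genes, 4979 of 12309 (40.5%) differed at an adjusted p below 0.05 in limma. Of these, 2780 (22.6%) were higher and 2199 (17.9%) were lower in Tnfr2-/-. At least a 2-fold difference was reached by 1151 of the higher genes (9.35%) and 852 of the lower genes (6.92%). For 5559 genes (45.2%) the 3 libraries of one group did not overlap with those of the other. The fit shared 1 estimate of spread among the 4 groups, although their spread was unequal. On the log2(FPKM + 1) scale the median SD was 0.25 with IL-6+TGF-β and 0.24 in Tnfr2-/-. It was 0.16 in WT with TNF+TGF-β and in Th0. With the 6 libraries fitted alone, fewer genes were called, 2002 higher and 1415 lower. Scaling every library to the 17 T cell receptor genes, an alternative chosen after the data had been seen, shifted the median of all genes by 0.24 and changed the split to 4004 higher and 1254 lower, 76.2% higher in place of 55.8%. Median-ratio scaling gave 2418 higher and 2693 lower (47.3% higher), and rescaling to TPM 2457 and 2431 (50.3% higher), so which direction had more calls depended on the scaling. The estimated depth was 16700000 to 19300000 fragments in the Tnfr2-/- libraries and 22200000 to 24000000 in the IL-6+TGF-β libraries.

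For some genes, the mean of WT cells with TNF+TGF-β is given beside the contrast. These cells share the genotype of the IL-6+TGF-β group and the cytokines of the Tnfr2-/- group. In the same fit, Tnfr2-/- against WT with TNF+TGF-β called 4721 genes (38.4%), and WT with TNF+TGF-β against WT with IL-6+TGF-β called 1497 (12.2%). These 3 comparisons share libraries, so their values stand side by side and are not counted as independent.

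**Figure D2:**
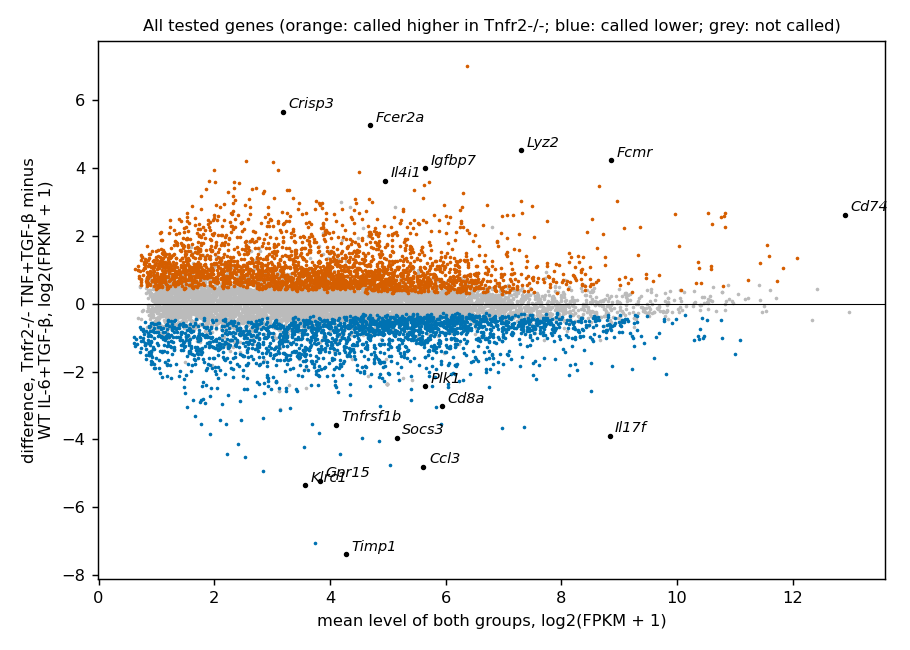
Each point is 1 tested gene: the mean level of both groups on the x axis and the difference on the y axis, both on the log2(FPKM + 1) scale, with genes called higher in Tnfr2-/- in orange, called lower in blue and not called in grey. Timp1, Klrc1, Gpr15 and Socs3 lie at the bottom, and Crisp3, Fcer2a, Lyz2 and the abundant Cd74 at the top.

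Genes of the IL-6 response were lower in Tnfr2-/-. Of 26 tested genes of the IL-6 and STAT3 list, 16 were called lower and 3 higher, with a median log2 difference of -0.97, against 0.04 over all tested genes. Socs3, the feedback inhibitor of gp130 signalling, was 139, 126 and 149 FPKM with IL-6+TGF-β and 8.96, 9.08 and 6.20 FPKM in Tnfr2-/-. All 3 Tnfr2-/- libraries were far below the lowest IL-6+TGF-β library, a 17.1-fold difference of the means (log2 difference -3.95, SE 0.25, adjusted p = 7.04e-07). In WT with TNF+TGF-β Socs3 was also low, 5.80 ± 2.01 FPKM (SD, n = 3), a log2 difference of 0.44 from Tnfr2-/- (adjusted p = 0.184).

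Of the transcription factors and kinases of the same list, Jak1 and Prdm1 were called higher, by 0.62 and 0.59 on the log2 scale (adjusted p = 0.00612 and 0.0169), and Bcl3, Batf, Pim1 and Stat3 were among those called lower. Jak1, a kinase of cytokine receptors, named like Prdm1 after its values were seen, was 138, 185 and 179 FPKM with IL-6+TGF-β and 234, 254 and 281 FPKM in Tnfr2-/-. Bcl3, an atypical IκB protein, was 179.8, 184 and 193 against 57.4, 64.2 and 74.6 FPKM (log2 difference -1.50). Batf, an AP-1 family factor needed for Th17 cells, was 128, 124 and 118 against 28.3, 26.3 and 14.4 FPKM (log2 difference -2.43). Pim1, a STAT-induced kinase, was 50.2, 78.05 and 84.3 against 21.4, 17.5 and 16.4 FPKM (log2 difference -1.86). For Bcl3, Batf and Pim1 the groups did not overlap, and WT with TNF+TGF-β lay between them, at 93.8, 58.9 and 32.1 FPKM. Stat3 itself was 165, 253 and 247 against 93.9, 82.95 and 72.4 FPKM (log2 difference -1.39, adjusted p = 0.000136).

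The receptor chains moved in opposite directions. Il6ra, the IL-6 receptor α chain, was 7.56, 12.7 and 10.9 FPKM with IL-6+TGF-β and 24.6, 17.4 and 19.8 FPKM in Tnfr2-/- (log2 difference 0.94, adjusted p = 0.00312). Il6st, which encodes gp130, was 6.60, 16.5 and 15.8 against 6.55, 3.83 and 2.46 FPKM (log2 difference -1.38, adjusted p = 0.00659). The IL-6+TGF-β library numbered 1 was close to the highest Tnfr2-/- library for Il6st. Il21, a STAT3 target cytokine, was 11.9, 10.1 and 10.3 FPKM with IL-6+TGF-β and listed at 0 in all Tnfr2-/- and all WT TNF+TGF-β libraries.

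Effector cytokine genes of the Th17 list were called lower in Tnfr2-/-. Of 21 tested genes, 12 were called lower and 3 higher, with a median of -1.01; without the Tnfr2-/- library numbered 1, 1 was higher. Il17a, the Th17 cytokine IL-17A, was 186, 65.2 and 111 FPKM with IL-6+TGF-β and 6.57, 5.08 and 5.92 FPKM in Tnfr2-/- (log2 difference -4.03, SE 0.42, adjusted p = 2.98e-05). Il17f, its relative, was 2466, 1222 and 1643 against 92.2, 113 and 143 FPKM (log2 difference -3.89, adjusted p = 7.25e-05). Both genes stayed above their Th0 means of 0 and 0.157 FPKM in every Tnfr2-/- library, and both were also low in WT with TNF+TGF-β, at 4.44 and 139.5 FPKM.

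Rora, a nuclear receptor of Th17 cells, was lower at 64.4, 75.7 and 53.7 against 41.7, 35.7 and 20.6 FPKM (log2 difference -1.01, adjusted p = 0.0125); without the Tnfr2-/- library numbered 4 its adjusted p was 0.0529. Il1r1, the IL-1 receptor, was 6.14, 8.80 and 10.2 against 2.11, 1.57 and 0.88 FPKM (log2 difference -1.90). Ccr6, the chemokine receptor of Th17 and B cells, went the other way, from 155, 108 and 160.4 to 350.0, 365 and 261 FPKM (log2 difference 1.21, adjusted p = 0.000332). Its mean in WT with TNF+TGF-β was 443 FPKM. The aryl hydrocarbon receptor gene Ahr, chosen after its values were seen, was 19.99, 36.03 and 29.4 against 7.52, 5.39 and 4.27 FPKM. Il22 was 0 in all 6 libraries, and Il23r did not reach the level for testing.

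**Figure D3:**
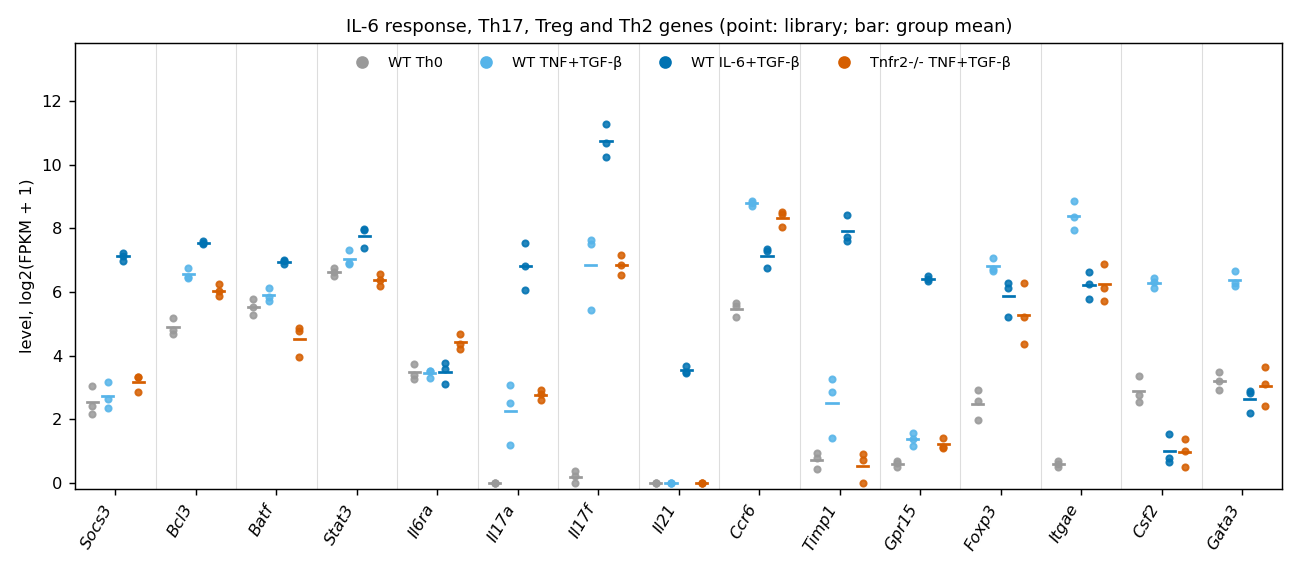
Level of 15 genes on the log2(FPKM + 1) scale in each library of the 4 groups, with bars at the group means. Socs3, Il17a, Il17f, Il21, Timp1 and Gpr15 are highest in the IL-6+TGF-β group, and Csf2 and Gata3 are high in WT with TNF+TGF-β.

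Short stretches before the start of 4 of these genes are shown with the letters of a STAT motif, TTCNNNGAA, or an AP-1 motif, TGANTCA, in capitals. They were cut by script from RefSeq promoter windows (GRCm38.p6), in the direction of the gene and only from the 250 bases before its start; both motifs read the same on both strands. Socs3 is shown as the lower gene of the IL-6 list that holds the STAT motif (chr11:117969467-117969565, minus strand), Il17a (chr1:20730655-20730712, plus strand) and Gpr15 (chr16:58719020-58719116, minus strand) as lower genes with the AP-1 motif, and Ccr6 (chr17:8235841-8235939, plus strand) as a higher Th17 gene with the STAT motif.
Socs3: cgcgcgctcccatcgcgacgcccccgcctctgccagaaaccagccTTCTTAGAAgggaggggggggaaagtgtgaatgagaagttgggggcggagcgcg
Il17a: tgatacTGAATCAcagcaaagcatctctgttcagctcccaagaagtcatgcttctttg
Gpr15: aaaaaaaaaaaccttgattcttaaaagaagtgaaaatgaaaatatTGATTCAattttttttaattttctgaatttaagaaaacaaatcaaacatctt
Ccr6: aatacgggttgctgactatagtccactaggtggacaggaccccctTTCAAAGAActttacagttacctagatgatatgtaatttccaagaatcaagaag
The STAT motif began 154 bases before the start in Socs3 and 157 bases before it in Ccr6, and Ccr6 held a second one 120 bases before it, left in lower case in the stretch shown. The AP-1 motif began 244 bases before the start in Il17a and 199 bases before it in Gpr15. Among the genes of the IL-6 and STAT3 list called lower, 14 had a window and 1 of them, Socs3, held the STAT motif. Of the 9 lower Th17 genes with a window, 0 held it, while 7.02% of all 32851 windows did. The share was 6.53% for windows of genes called lower, 5.37% for genes called higher and 5.86% for tested genes not called. The AP-1 motif was in 6.75% of all windows, 4.69% of lower, 4.72% of higher and 3.90% of uncalled ones. A match is a description of these letters only, and a window without one says nothing of a factor's binding elsewhere.

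The largest falls over all genes were led by Timp1, an inhibitor of matrix metalloproteinases. It was 341, 194 and 213 FPKM with IL-6+TGF-β and 0.66, 0.86 and 0 FPKM in Tnfr2-/- (log2 difference -7.38, adjusted p = 3.25e-07), with 5.52 FPKM in WT with TNF+TGF-β. Gpr15, a homing receptor of the colon, was 84.6, 89.01 and 80.8 against 1.13, 1.20 and 1.66 FPKM (log2 difference -5.21, adjusted p = 5.23e-09) and 1.60 FPKM in WT with TNF+TGF-β. Mt2, a metallothionein, was 109, 53.9 and 89.8 against 2.54, 3.07 and 2.78 FPKM, and Pltp, the phospholipid transfer protein, 41.6, 54.01 and 53.2 against 1.55, 2.16 and 1.41 FPKM. In WT with TNF+TGF-β, Mt2 was 6.33 and Pltp 0.407 FPKM, so these 4 genes were low with TNF+TGF-β in both genotypes. Crispld2 was 20.2, 31.9 and 28.4 against 0.27, 0.36 and 0 FPKM. Pdpn, podoplanin, was 12.1, 12.03 and 16.2 FPKM with IL-6+TGF-β and listed at 0 in the 3 Tnfr2-/- libraries. Snord13, at 39.8, 179 and 315 FPKM against 0 in all 3, is a small nucleolar RNA whose FPKM is uncertain because it is so short.

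The largest rises included B cell and myeloid genes named above, with Fcer2a, the low-affinity IgE receptor, at 2.75, 1.40 and 5.78 against 105, 143 and 216 FPKM and Cr2, complement receptor 2, at 1.19, 0.36 and 1.17 against 22.1, 32.6 and 45.99 FPKM. Fcmr, the IgM Fc receptor, was 107, 58.02 and 168 against 1445, 2080.3 and 2269 FPKM. The highest rise among the named genes was that of Crisp3, a cysteine-rich secretory protein, from 0.48, 0.07 and 0.23 to 42.4, 90.3 and 61.2 FPKM (log2 difference 5.65, adjusted p = 2.4e-07). Il4i1, an amino acid oxidase of lymphoid and myeloid cells, was 9.72, 4.93 and 9.06 against 84.8, 126 and 106 FPKM, and Cxcl16, a chemokine of antigen-presenting cells, 0.54, 1.95 and 0.69 against 22.9, 18.1 and 18.7 FPKM. Apol7c and Hist1h4m were listed at 0 in every IL-6+TGF-β library and reached 11.6, 11.7 and 21.5 and 7.31, 7.50 and 24.7 FPKM; histone genes such as Hist1h4m make short transcripts without a polyA tail, so that level is uncertain.

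Igfbp7, Dhrs3 and Lcn10 were rises that WT cells shared under TNF. Igfbp7, a secreted binding protein, was 16.7, 9.10 and 9.53 FPKM with IL-6+TGF-β and 203, 194 and 184 FPKM in Tnfr2-/-, and 262 ± 41.5 (SD, n = 3) in WT with TNF+TGF-β. Its difference from IL-6+TGF-β was 3.98 (adjusted p = 1.05e-07). Dhrs3, a retinaldehyde reductase, was 1.15, 1.45 and 0.96 against 31.2, 35.6 and 30.4 FPKM, with 24.7 FPKM in WT with TNF+TGF-β. Lcn10, a lipocalin, was 0.22, 0.21 and 0 against 17.1, 15.3 and 7.71 FPKM, with 10.3 FPKM in WT with TNF+TGF-β. For these 3 genes the difference between genotypes under TNF+TGF-β did not pass the test (adjusted p = 0.112, 0.203 and 0.351).

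Genes of regulatory T cells did not move as a group. Of 20 tested, 4 were called higher and 4 lower, 40% in either direction against 40.5% of all tested genes. The median of -0.10 turned positive under the scaling to T cell receptor genes, with the replicate number as a block or without the Tnfr2-/- library numbered 4. Foxp3, the Treg lineage factor, was 35.9, 76.97 and 68.5 FPKM with IL-6+TGF-β and 76.05, 35.9 and 19.7 FPKM in Tnfr2-/-, overlapping ranges (log2 difference -0.59, adjusted p = 0.288). Il2ra, the IL-2 receptor α chain, was lower, at 161, 238 and 245 against 128, 68.3 and 47.1 FPKM (log2 difference -1.49, adjusted p = 0.00413). Ebi3, a subunit of IL-27 and IL-35, was higher, at 0.87, 1.53 and 0.88 against 14.1, 17.9 and 18.2 FPKM (log2 difference 3.09, adjusted p = 2.99e-07). Itgae, the αE integrin induced by TGF-β, did not pass the test between these groups, at 53.7, 97.8 and 75.2 against 116, 69.3 and 51.96 FPKM, whereas WT with TNF+TGF-β stood at 345 ± 108 FPKM (SD, n = 3).

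Csf2, which encodes GM-CSF, and Gata3, the Th2 lineage factor, showed the same pattern as Itgae. Csf2 was 0.71, 0.58 and 1.90 against 0.42, 1.02 and 1.63 FPKM (adjusted p = 0.966), and 77.4 ± 8.73 FPKM (SD, n = 3) in WT with TNF+TGF-β. Gata3 was 3.55, 6.34 and 6.12 against 11.5, 7.54 and 4.36 FPKM (adjusted p = 0.275), and 83.2 ± 15.1 FPKM (SD, n = 3) in WT with TNF+TGF-β. The test of Tnfr2-/- against WT under TNF+TGF-β gave log2 differences of -5.32 for Csf2, -3.33 for Gata3 and -2.14 for Itgae (adjusted p = 7.26e-07, 1.07e-05 and 0.000181). Of the 10 tested Th2 and Th9 genes, 5 were called lower, or 3 without any 1 of the IL-6+TGF-β libraries numbered 1 and 2 and the Tnfr2-/- library numbered 4. Penk, the opioid precursor proenkephalin, was 36.3, 18.4 and 26.7 against 11.7, 5.07 and 4.51 FPKM and 339 FPKM in WT with TNF+TGF-β.

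Both groups had received TGF-β. Of 20 tested TGF-β pathway genes, 4 were higher and 2 lower, 30% in either direction against 40.5% of all tested genes. Their median of -0.02 was above 0 with T cell receptor gene scaling, among other settings. The lower count ran from 1 to 5 when single libraries were left out, 5 without the Tnfr2-/- library numbered 1, 4 without the IL-6+TGF-β library numbered 1 and 1 without any other. Tgfbr1, the type I receptor, was 14.6, 20.3 and 21.6 against 51.95, 35.3 and 31.7 FPKM (log2 difference 1.02, adjusted p = 0.00147), and Tgif1, a repressor of SMAD targets, 48.5, 53.3 and 44.6 against 91.1, 98.8 and 109 FPKM. Tgfb3, a ligand, was 0.59, 1.83 and 1.20 against 7.29, 5.49 and 6.82 FPKM. Eng, a co-receptor, was 4.90, 10.5 and 7.01 against 3.95, 1.26 and 0.69 FPKM (log2 difference -1.62). Smad7 and Smad3 did not pass the test.

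Among 25 tested TNF superfamily ligands and receptors, 11 were called lower and 5 higher. The lower count fell to 6 or 7 without the Tnfr2-/- library numbered 4 or the IL-6+TGF-β library numbered 3, and to 6 with T cell receptor gene scaling. Tnfrsf1a, the receptor that the Tnfr2-/- cells keep, was 21.9, 22.7 and 23.9 against 17.6, 14.9 and 10.7 FPKM (log2 difference -0.66, adjusted p = 0.0175); its adjusted p was 0.0702 without the Tnfr2-/- library numbered 4 and 0.0533 without the IL-6+TGF-β library numbered 3. Tnf itself was 16.97, 22.1 and 17.7 against 14.6, 9.21 and 12.2 FPKM (log2 difference -0.63, adjusted p = 0.0353), a call also lost without any 1 of the libraries numbered 2 and 3 of IL-6+TGF-β and 2 and 4 of Tnfr2-/-. Tnfrsf8, the receptor CD30, was 3.79, 11.2 and 6.52 against 0.99, 0.37 and 0.02 FPKM (log2 difference -2.43). Higher members were Fasl, the death ligand, at 1.04, 1.16 and 0.93 against 16.4, 7.81 and 6.96 FPKM (log2 difference 2.39), and Tnfsf11, RANKL, at 9.56, 7.45 and 8.09 against 34.3, 25.9 and 17.5 FPKM (log2 difference 1.48). Tnfsf11 was higher still in WT with TNF+TGF-β, at 126 FPKM.

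The NF-κB and TNF response list had 8 genes higher and 3 lower of 29 tested, with a median of 0.28. In either direction 37.9% were called, against 40.5% of all tested genes. With T cell receptor gene scaling 15 were higher. Nfkbie, the NF-κB inhibitor IκBε, was 25.1, 21.1 and 24.03 FPKM with IL-6+TGF-β and 76.9, 78.5 and 64.7 FPKM in Tnfr2-/- (log2 difference 1.61, adjusted p = 4.58e-06). Rel, the NF-κB subunit c-Rel, was 5.23, 5.39 and 5.42 against 13.2, 18.1 and 18.1 FPKM (log2 difference 1.45). Ccl22, an NF-κB induced chemokine also made by dendritic cells, was 0, 0.15 and 0.11 against 17.4, 7.61 and 7.93 FPKM, and 35.6 FPKM in WT with TNF+TGF-β. Nfkbia, Tnfaip3 and Nfkb1 did not pass the test.

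Cytotoxic and Th1 genes were lower at 14 and higher at 5 of 23 tested, with a median of -1.09. Members such as Gzmb passed the filter through the IL-6+TGF-β libraries alone, which fixed this direction in part. Without the filter on low values, 14 of 26 were called lower and 4 higher. Gzmb, granzyme B, was 32.4, 38.9 and 44.4 FPKM with IL-6+TGF-β and 0.38, 0.37 and 0.11 FPKM in Tnfr2-/- (log2 difference -4.94, adjusted p = 7.77e-06); in Th0 it was 317 FPKM. Ccl3 and Ccl4, the chemokines MIP-1α and MIP-1β, were 344, 180.4 and 219.6 against 10.2, 12.7 and 3.11 FPKM and 774, 429 and 474 against 67.5, 49.7 and 23.1 FPKM. Tbx21, the Th1 factor T-bet, was 11.1, 13.6 and 16.4 against 0.71, 0.73 and 1.68 FPKM (log2 difference -2.87, adjusted p = 7.26e-06). Ifng, interferon-γ, was 16.3, 10.9 and 20.2 against 1.40, 2.22 and 3.78 FPKM (log2 difference -2.29). These genes moved with Cd8a and Cd8b1, the latter at 149, 114 and 125 against 42.6, 51.1 and 20.9 FPKM, and the part of CD8 T cells in them was not tested.

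All 4 tested genes of the natural killer list were called lower, with log2 differences from -5.34 to -1.44. Of the 8 listed, 4 had at least 1 FPKM in all IL-6+TGF-β libraries and 1 in all Tnfr2-/- libraries, so the filter fixed this direction in part. Klrd1, which encodes CD94, was 175, 176 and 145 FPKM with IL-6+TGF-β and 6.74, 6.96 and 2.71 FPKM in Tnfr2-/- (log2 difference -4.76, adjusted p = 6.38e-07). Its partner Klrc1, NKG2A, was 77.8, 67.4 and 71.2 against 1.27, 1.57 and 0 FPKM (log2 difference -5.34), and Klrk1, NKG2D, 19.9, 22.3 and 20.9 against 0.21, 0.68 and 0 FPKM. The fourth, Klre1, was low in both groups, at 1.99, 2.48 and 1.60 against 0.36, 0 and 0 FPKM. Klrc genes resemble one another, so reads may be shared among them. In WT with TNF+TGF-β Klrd1, Klrc1 and Klrk1 stood at 34.2, 6.94 and 10.5 FPKM, while Cd8a there was 173 FPKM, a log2 difference of 0.08 from IL-6+TGF-β (adjusted p = 0.918). The defining NK cell gene Ncr1 was listed at 0 in all IL-6+TGF-β libraries, and Klrb1c did not reach the level for testing.

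Against this direction, Ccl5, a chemokine of memory T cells and NK cells, rose from 5.22, 4.52 and 4.23 to 57.4, 64.3 and 151 FPKM (log2 difference 3.88, adjusted p = 2.13e-06). Il18r1, the IL-18 receptor, was 5.78, 6.20 and 6.71 against 23.2, 19.6 and 19.6 FPKM (log2 difference 1.59, adjusted p = 7.01e-06). Ccl5 was highest in the Tnfr2-/- library numbered 4, where Cd8a was lowest.

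Proliferation genes were lower in Tnfr2-/-. All 25 mitosis and G2/M genes were called lower, with a median of -1.85, and 25 of 26 S phase and DNA replication genes, with a median of -1.15. Plk1, a mitotic kinase, was 77.9, 129 and 136 FPKM with IL-6+TGF-β and 31.8, 15.6 and 15.1 FPKM in Tnfr2-/- (log2 difference -2.44, adjusted p = 5.21e-05). Ccna2, cyclin A2, was 154, 149.7 and 163 against 56.7, 29.7 and 17.6 FPKM (log2 difference -2.29). Rrm2, a ribonucleotide reductase subunit, was 462, 352 and 386 against 122, 78.8 and 63.9 FPKM (log2 difference -2.21), and Mcm10, a replication initiation factor, 23.5, 35.9 and 32.8 against 9.64, 6.37 and 3.64 FPKM. In each of these 4 genes the Tnfr2-/- library numbered 1 was the highest of its group and still below all IL-6+TGF-β libraries.

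WT cells with TNF+TGF-β gave other values. Against IL-6+TGF-β, limma called 0 of 25 mitosis genes in WT with TNF+TGF-β (1 at an unadjusted p below 0.05, median 0.03), and 1 S phase gene was lower (median -0.12). Tnfr2-/- against WT under TNF+TGF-β called 25 of 25 mitosis genes and 22 of 26 S phase genes lower. Plk1 stood at 119 FPKM in WT with TNF+TGF-β (log2 difference from IL-6+TGF-β 0.07, adjusted p = 0.901). With T cell receptor gene scaling, 25 mitosis and 24 S phase genes were called lower in Tnfr2-/- than with IL-6+TGF-β, with medians of -1.60 and -0.89. The B cell and myeloid markers moved with this difference, and their part in it was not tested.

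**Figure D4:**
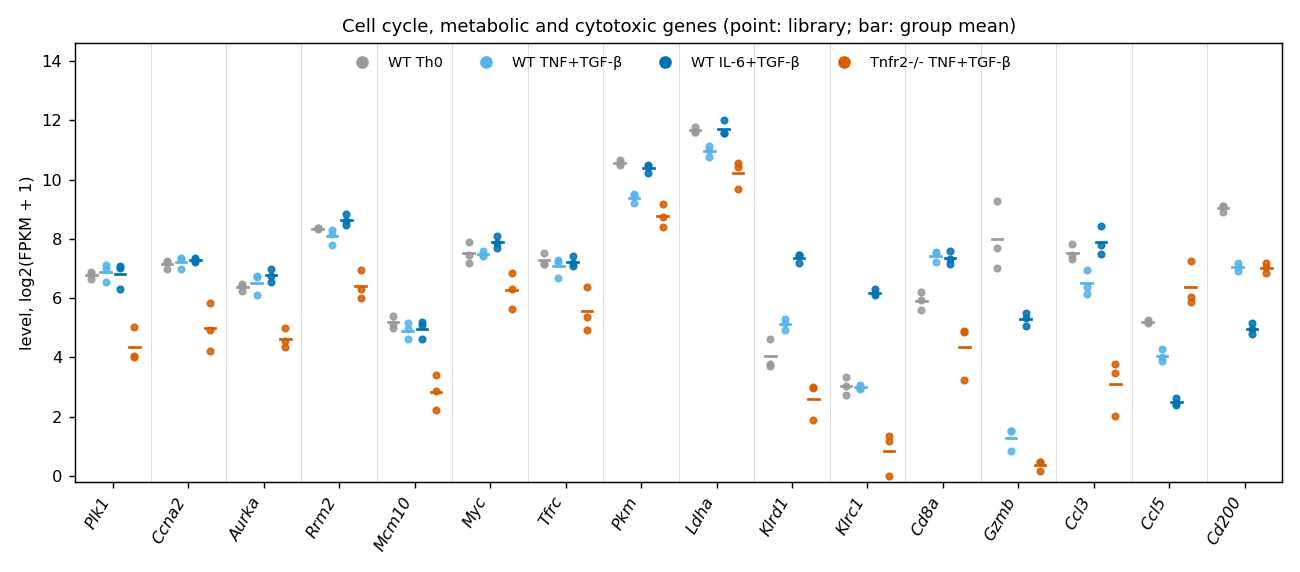
Level of 16 genes on the log2(FPKM + 1) scale in each library of the 4 groups, with bars at the group means. The 5 cell cycle genes at the left lie lower in Tnfr2-/- than in all 3 WT groups, Klrd1 and Klrc1 are highest with IL-6+TGF-β, and Ccl5 and Cd200 are lowest there.

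Growth and metabolism genes followed in the same direction. Of 21 tested genes of MYC and ribosome biogenesis, 18 were called lower (median -0.83). Myc, the growth factor-induced transcription factor, was 206, 273 and 233 against 116, 77.5 and 48.97 FPKM (log2 difference -1.62, adjusted p = 0.000542), and Tfrc, the transferrin receptor, 135, 144 and 172 against 82.4, 40.1 and 29.1 FPKM. Of 32 glycolysis and hypoxia genes, 16 were lower and 2 higher (median -0.58). Pkm, pyruvate kinase, was 1198, 1442 and 1385 against 577, 425 and 337 FPKM (log2 difference -1.62), and Ldha, lactate dehydrogenase, 4166, 3037 and 3031 against 1519, 1371 and 817 FPKM (log2 difference -1.50). In WT cells, too, TNF+TGF-β gave lower levels of both than IL-6+TGF-β did (log2 differences -0.99 and -0.75, adjusted p = 0.0024 and 0.0464). Egln3, a hypoxia-induced prolyl hydroxylase, was 26.6, 25.3 and 23.5 against 4.32, 3.75 and 2.42 FPKM and 4.89 FPKM in WT with TNF+TGF-β.

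Other metabolic lists were lower in part. Of 28 cholesterol and fatty acid synthesis genes 14 were lower and 1 higher, with 6 to 9 lower when single libraries other than the first of either group were left out. Fasn, fatty acid synthase, was 34.9, 74.6 and 56.6 against 21.6, 17.5 and 14.3 FPKM (log2 difference -1.54, adjusted p = 0.00054). Of 22 amino acid stress genes regulated by ATF4, 12 were lower and 3 higher; Asns, asparagine synthetase, was 33.8, 25.2 and 23.1 against 6.18, 6.03 and 2.07 FPKM, while Ddit3, the stress factor CHOP, was higher at 40.2, 33.5 and 29.5 against 95.1, 133 and 135 FPKM (log2 difference 1.78). Of 28 nuclear genes of oxidative phosphorylation, 14 were lower, reduced to 7 without the Tnfr2-/- library numbered 4, to 8 without the IL-6+TGF-β library numbered 1 and to 5 with T cell receptor gene scaling. Of 18 unfolded protein response genes, 9 were lower and 2 higher, reduced to 5 lower without the Tnfr2-/- library numbered 4 and to 1 with that scaling.

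RNA of common γ chain cytokine and receptor genes was lower at 9 of 16 tested genes and higher at 1. The lower count was 6 without any 1 of the IL-6+TGF-β libraries numbered 2 and 3 and the Tnfr2-/- libraries numbered 2 and 4. It was also 6 with T cell receptor gene scaling, and 12 without the Tnfr2-/- library numbered 1. Jak3, the kinase of the γ chain, was 68.4, 155 and 137 against 54.95, 34.3 and 27.6 FPKM (log2 difference -1.58, adjusted p = 0.00206). Cish and Socs2, feedback genes of STAT5, were 61.9, 91.5 and 91.2 against 45.2, 28.96 and 13.7 FPKM and 164, 139 and 159.9 against 64.96, 54.7 and 38.5 FPKM. Il21r, the IL-21 receptor, was 66.4, 177 and 179 against 60.1, 48.6 and 30.5 FPKM. In all 4 genes the difference of Tnfr2-/- from WT under TNF+TGF-β was also called (log2 differences -1.50, -2.24, -1.22 and -1.70). Il2 was low in both groups, at 2.18, 1.69 and 2.02 against 1.33, 0.68 and 0.84 FPKM, and its call (adjusted p = 0.0441) was lost without any single library but the one numbered 1 of Tnfr2-/-.

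Homing receptors split. Of 21 tested chemokines and their receptors, 8 were higher and 9 lower, 81% in either direction against 40.5% of all tested genes. The share was 71.4% for the follicular helper list and 52.9% for the naive T cell list. S1pr1, the receptor that leads lymphocytes out of lymphoid tissue, was 80.3, 64.3 and 101 FPKM with IL-6+TGF-β and 181, 242 and 339 FPKM in Tnfr2-/- (log2 difference 1.60, adjusted p = 0.000888). Cxcr5, the receptor of B cells and follicular helper T cells, was 37.05, 29.6 and 39.5 against 76.8, 87.1 and 92.9 FPKM (log2 difference 1.26). Both genes were highest in the library numbered 4, as was the B cell sum. Among 14 follicular helper genes 6 were higher and 4 lower, with Id3, an inhibitor of E proteins, at 80.7, 44.03 and 62.6 against 283, 481 and 437 FPKM (log2 difference 2.67). Of 17 naive T cell genes 5 were higher and 4 lower, with Foxp1, a quiescence factor, at 179, 257 and 271 against 457, 388 and 484 FPKM and Igfbp4, a secreted binding protein, at 781, 875 and 948 against 339, 257 and 163 FPKM. Leaving out the library numbered 2 of Tnfr2-/- brought these 2 naive counts to 3 and 1, and leaving out the library numbered 4 did the same. Without the IL-6+TGF-β library numbered 2 they were 3 and 2, and without that numbered 3 the lower count was 2.

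Coinhibitory receptors were higher at 4 and lower at 2 of 13 tested genes, 46.2% in either direction against 40.5% of all tested genes. The lower count was 5 without the Tnfr2-/- library numbered 1 and 1 without those numbered 2 or 4 or the IL-6+TGF-β library numbered 2. Cd200, the ligand of an inhibitory receptor, was 29.9, 26.9 and 34.8 FPKM with IL-6+TGF-β and 115, 132 and 144 FPKM in Tnfr2-/- (log2 difference 2.06, adjusted p = 7.04e-07), with 133 FPKM in WT with TNF+TGF-β. Lag3, an MHC class II binding receptor, was 12.8, 36.6 and 25.1 against 11.6, 8.45 and 8.10 FPKM (log2 difference -1.21, adjusted p = 0.0158), a call lost without any of 3 single libraries, the IL-6+TGF-β library numbered 2 and the Tnfr2-/- libraries numbered 2 and 4. Cd160 was 97.5, 79.9 and 63.00 against 44.96, 36.95 and 16.1 FPKM. Pdcd1, Ctla4 and Tigit did not pass the test.

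Type I interferon genes were higher at 14 and lower at 2 of 19 tested genes, with a median of 1.06. Of the 27 listed, some, such as Oasl1, passed the filter through the Tnfr2-/- libraries alone, which fixed this direction in part. Without the filter on low values, 12 of 26 were called higher and 2 lower. Usp18, an interferon-induced protease, was 2.33, 2.25 and 2.12 FPKM with IL-6+TGF-β and 7.53, 6.28 and 15.6 FPKM in Tnfr2-/- (log2 difference 1.64, adjusted p = 0.000588). Rtp4 was 2.61, 1.77 and 1.71 against 4.56, 6.77 and 19.9 FPKM and Oasl1 0.59, 0.34 and 0.59 against 3.09, 4.08 and 7.48 FPKM. The library numbered 4 was the highest for all 3, and for Ifit3, at 2.60, 3.46 and 22.1 FPKM, whose call was lost without it and without any 1 of the IL-6+TGF-β libraries. With a filter of at least 5 FPKM, 11 of these genes were still tested and 7 of them were called higher. Of 16 interferon-induced GTPases 3 were higher and 5 lower, 50% in either direction against 40.5% of all tested genes. Gbp2 was 199, 244 and 178 against 19.3, 16.2 and 14.7 FPKM (log2 difference -3.55, adjusted p = 8.11e-08), while Gbp9 was 3.72, 2.89 and 2.65 against 14.5, 14.97 and 23.9 FPKM (log2 difference 2.18). Gbp genes are near copies of one another, as are Tgtp1 and Tgtp2, so their single values are uncertain.

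Of 18 MHC class I genes, 6 were called higher and 0 lower, with a median of 0.18. The share of 33.3% stands against 22.6% of all tested genes called higher and 40.5% called in either direction. H2-K1, a classical class I chain, was 1298, 702 and 829 against 1541, 2189 and 1954 FPKM (log2 difference 1.04, adjusted p = 0.0048), and B2m, its light chain, 2305, 1562 and 1788 against 2846, 2928 and 3287 FPKM. The class I chains share sequence, and their single values are uncertain. The B cell and myeloid sums moved with the interferon and class I genes, and their part was not tested.

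**Figure D5:**
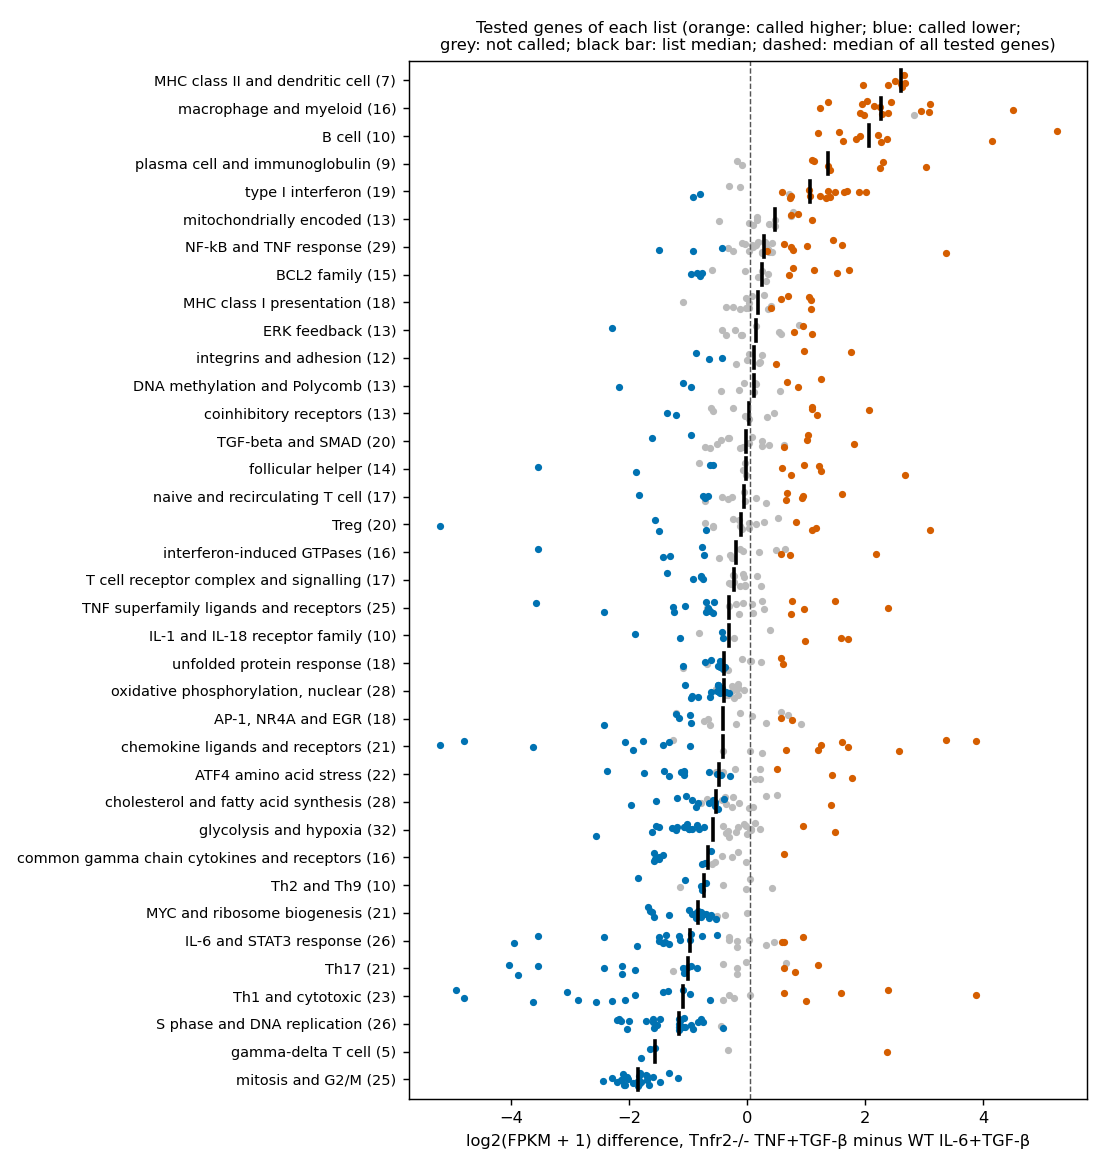
Log2 difference of each tested gene in the lists with at least 5 tested genes (number in brackets), ordered by the list median (black bar), with the median of all tested genes dashed. The MHC class II, myeloid and B cell lists lie at the top, with medians of 2.61, 2.26 and 2.07, and the mitosis list at the bottom, with -1.85.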

How the data were processed

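Bulk RNA sequencing covered 12 libraries, 3 in each of 4 groups. Per the labels' protocols, cDNA came from a SMARTer low-input kit and libraries from Nextera XT, which does not mark strand, so reads of overlapping and antisense genes mix. The authors trimmed, aligned and quantified with Trimmomatic, STAR 2.5.4 and RSEM 1.3.1 on mm10, per the submitters' processing notes. The deposited values were read as FPKM per gene made by the authors, because their products with transcript length (kilobases) gave library sums of 900467 to 1010096. The authors' annotation is not named in the sources used here, and 47224 gene identifiers (99.1%) matched GENCODE M21. The Tnfr2-/- columns carried the numbers 1, 2 and 4, so the last was tied to its group only.

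Depth was not stated. It was estimated, by a method chosen after earlier results were known, from the spacing of low FPKM in 8697 single-transcript genes of 800 to 3000 bases, less 300 bases. Of these values, 75.7% to 87.4% lay within 0.2 of a whole multiple, and 3 fragments on 1 kilobase corresponded to 0.125 to 0.18 FPKM, which covers counting error only.

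Values were transformed to log2(FPKM + 1), which understates the change of low genes, and fitted with limma 3.58.1 (R 4.3.3, trend) over 12 libraries with 1 mean per group, no covariate, and Benjamini-Hochberg adjustment over the 12309 tested genes. The fit was tested on simulated data. No list was tested. Counts of called members and medians are to be read beside those of all tested genes: 22.6% higher, 17.9% lower and a median of 0.04. In any list, a gene that reached 1 FPKM in 1 group only passed the filter through that group, which fixed its direction in part. The members and the 42 gene lists were chosen with earlier results of these data known. Named genes are 26 preset genes, of which 1 is not reported here, the 15 largest rises and 15 largest falls among called genes that changed 2-fold without overlap and averaged 10 FPKM or more in the higher group, and up to 4 called genes per list by size. The largest rises and falls exclude predicted genes, immune receptor segments and genes lacking a symbol. Alternatives were pseudocounts of 0.1 and 5, other filters, TPM and median-ratio scaling, the 6 libraries alone, a block for the library number, leaving out each library, and, added after the data had been seen, scaling to T cell receptor genes.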

Additional observations from a re-analysis of the deposited data

How the results depend on the processing

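The count of higher genes, 2780, stayed within 1.5 times under every alternative run. The count of lower genes, 2199, fell to 1415 when the 6 libraries were fitted alone and to 1254 with scaling to the T cell receptor genes, an alternative chosen after the data had been seen. When single libraries were left out, 2278 to 2833 genes were higher and 1579 to 2461 lower, the fewest lower without the Tnfr2-/- library numbered 4. No gene called in 1 direction was called in the other under any alternative. Of 181 tested named genes 175 were called, and 149 of these lost it in no alternative that gave them a value. For 133 of the 149 that was every alternative, and the other 16 did not pass the filter of at least 5 FPKM. The remaining 26 lost it in at least 1, and 18 of them did so when a library was left out. Median-ratio scaling called 5 genes lower in the TGF-β list, 5 in the NF-κB list, 4 among the coinhibitory receptors and 2 in the MHC class I list, in place of 2, 3, 2 and 0. The causes were not tested.

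With the library number as a block, 2178 genes were higher and 1385 lower. The numbers 1 and 2 are the only ones shared by both groups. The deviations of same-numbered libraries from their group means had correlations of -0.319 and -0.167, and those of other pairs ran from -0.201 to 0.332. With 3 libraries in a group the deviations constrain one another, so these values cannot decide whether equal numbers mark a shared batch. Il6st lost its call with the block (adjusted p = 0.0557).

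Depth was lower in the Tnfr2-/- libraries by estimate, so values of low genes there rest on fewer fragments.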

Other observations

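The BCL2 family, which governs mitochondrial cell death, split in this contrast, with 5 of 15 tested genes higher and 4 lower in Tnfr2-/- with TNF+TGF-β than in WT with IL-6+TGF-β. In either direction 60% were called, against 40.5% of all tested genes. Bmf, a BH3-only death activator, was 0.88, 1.16 and 0.59 FPKM with IL-6+TGF-β and 5.20, 5.74 and 4.66 FPKM in Tnfr2-/- (limma, log2 difference 1.73, adjusted p = 5.51e-05). Bid, another BH3-only gene, was 12.5, 11.3 and 12.2 against 27.9, 29.98 and 24.6 FPKM (log2 difference 1.13). Bak1, a pore-forming effector, was lower at 4.29, 7.04 and 6.86 against 2.42, 2.56 and 2.79 FPKM. Bcl2, Mcl1 and Bcl2l11 did not pass the test, and the near-identical Bcl2a1 copies are uncertain.

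DNA methylation and Polycomb genes held 3 higher and 3 lower of 13. Over all tested genes, 40.5% were called in either direction. The share was 46.2% for this list, 30.8% for ERK feedback and 50% for integrins and adhesion. It was 23.1% for mitochondrially encoded genes, 38.9% for the AP-1, NR4A and EGR list and 70% for the IL-1 and IL-18 family. Uhrf1, which recruits the maintenance methyltransferase, was 69.4, 146 and 131 against 44.4, 21.2 and 13.9 FPKM (log2 difference -2.17), and Ezh2, the Polycomb methyltransferase, 76.7, 70.9 and 67.7 against 43.5, 31.6 and 26.7 FPKM (log2 difference -1.09). Tet2, a DNA demethylase, was higher at 8.60, 5.35 and 6.52 against 19.99, 16.8 and 15.7 FPKM (log2 difference 1.26). Of the ERK feedback genes, Ier3 was 17.3, 17.7 and 16.5 against 3.95, 3.53 and 1.25 FPKM (log2 difference -2.30) and Spry1 43.4, 32.3 and 38.6 against 109, 71.05 and 72.2 FPKM (log2 difference 1.10), with 3 of 13 higher and 1 lower (3 lower without the Tnfr2-/- library numbered 1). Among 12 integrin and adhesion genes, 3 were higher and 3 lower, with Itga4, the α4 integrin, at 13.2, 9.09 and 8.40 against 27.9, 40.3 and 42.4 FPKM (log2 difference 1.76). Of 13 mitochondrially encoded genes 3 were higher, and of 18 genes of the AP-1, NR4A and EGR list 2 were higher and 5 lower (0 and 8 without the Tnfr2-/- library numbered 1), with Jun at 83.9, 93.7 and 106 against 53.7, 45.7 and 26.3 FPKM. Of 10 IL-1 and IL-18 family genes, 3 were higher and 4 lower, and the latter fell to 1 or 2 without any single library but the Tnfr2-/- one numbered 1. Of 5 tested genes of the γδ T cell list, 3 were lower and 1 higher. The lower ones were constant segments of the γ chain, with Tcrg-C2 at 9.21, 12.8 and 7.96 against 2.06, 2.39 and 1.91 FPKM. Blk, also on the B cell list, was higher, and the list summed to 34.5 to 48.2 against 74.1 to 98.4 FPKM. Cpa3 and Mcpt8, of the mast cell and basophil list, were higher, with Cpa3 at 0.12, 0 and 0 against 1.43, 1.48 and 2.24 FPKM. Of the 6 genes of that list, 0 had at least 1 FPKM in all IL-6+TGF-β libraries and 2 in all Tnfr2-/- libraries. The filter therefore fixed this direction in part. Among immunoglobulin genes 7 of 9 were higher, with Igkc at 906, 461 and 1148 against 2501, 4005 and 5193 FPKM.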
